A study of Mus musculus with 4 samples.

Results

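Glycolysis, the handling of pyruvate and lactate, and the pentose phosphate pathway were followed through 35 genes in splenic B cells of mice with a rearranged 3' regulatory region (3'RR) of the IgH locus. The genes were taken by name from the deposited gene count table. All 35 were found among its 41342 named genes, and 33 reached an average of 50 counts per library, the minimum that 11286 genes met and that was set for testing. Eno2 and Slc16a3 did not reach it and are given by their counts.

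The cells were CD43-depleted splenocytes of 129 strain mice, that is, splenic B cells left after removal of cells that carry CD43. ΔleftPAL mice carried a deletion that takes out the enhancers hs3a and hs1,2 together with the intervening inverted repeats (IRIS). ΔIRIS mice lacked the IRIS alone, with hs3a put back in inverted orientation so that every enhancer was present. In both lines the change was made in embryonic stem cells, the neo cassette was removed by cre breeding, and mice homozygous for the change were obtained, so that each cell of the animal carried it. For each genotype, 1 library came from freshly isolated resting cells and 1 from cells kept for 2 days with LPS at 5 μg per ml, the lipopolysaccharide of bacterial walls, to which B cells respond by dividing. The labels describe each RNA as a pool of cells from 4 animals, whose age is not given there. The paper's figure legend for the LPS-cultured cells names male mice and gives an age range in weeks. The study's methods describe the pooling in another way, with RNAs of fewer animals each, so that what a library stands for is not settled. Libraries of wt cells were not analysed here, so that no value below is relative to the intact locus. Resting cells were not cultured, and the effect of LPS cannot be told apart from that of the culture itself.

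Total counts lay between 23621743 and 29778717 per library, and 3 counts, the smallest number taken as detected, corresponded to 0.102 to 0.123 CPM (counts scaled by library size with TMM factors). Each group is 1 library. LPS was therefore tested over both genotypes in an additive fit by edgeR's quasi-likelihood test, with 1 residual degree of freedom. Its error comes from the disagreement between the genotypes. For each gene this error was moderated towards that of the other genes tested, which weighed as 4.35 prior degrees of freedom. Ratios within a genotype or a condition have no replicate check, and their 95% exact Clopper-Pearson intervals cover counting error only. The scaling put the median gene slightly above 0 on LPS, at a log2 ratio of 0.12 in ΔleftPAL and 0.13 in ΔIRIS cells, where DESeq2 size factors put it at -0.01 and -0.02. In these bulk samples, fewer cells of a type and less RNA per cell cannot be told apart.

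Glycolysis splits glucose into pyruvate through a preparatory phase, in which hexokinase and phosphofructokinase spend ATP, and a payoff phase from glyceraldehyde-3-phosphate dehydrogenase to pyruvate kinase. Pyruvate is either reduced to lactate, which leaves the cell through monocarboxylate transporters, or oxidised to acetyl-CoA by the pyruvate dehydrogenase complex in mitochondria. The pentose phosphate pathway branches off at glucose 6-phosphate and supplies NADPH and ribose for nucleotides. Lymphocytes that leave rest and divide are known to raise their glucose consumption and lactate output, and LPS is a classical mitogen for mouse B cells.

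The gene of pyruvate kinase, Pkm, gives a pair of enzyme forms through the choice of 1 of 2 exons of equal length, and both exons are shown because the transcripts that carry them behaved differently on LPS. On the plus strand of mm10 (GRCm38, GENCODE M21), the exon of the PKM1 form lies at chr9:59675029-59675195 and that of the PKM2 form at chr9:59675568-59675734, both within the coding sequence. Each has 167 bases, of which 103 (61.7%) are the same at the same position and 64, in capitals, are not.
PKM1 exon: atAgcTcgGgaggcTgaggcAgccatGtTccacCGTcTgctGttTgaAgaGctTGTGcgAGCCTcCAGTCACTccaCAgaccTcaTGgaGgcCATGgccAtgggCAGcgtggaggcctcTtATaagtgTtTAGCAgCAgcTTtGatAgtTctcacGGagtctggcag
PKM2 exon: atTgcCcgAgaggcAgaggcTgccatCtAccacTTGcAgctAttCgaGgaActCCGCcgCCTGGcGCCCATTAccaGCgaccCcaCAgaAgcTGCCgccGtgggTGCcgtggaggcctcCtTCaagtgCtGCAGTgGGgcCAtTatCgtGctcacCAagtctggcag

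Promoters were matched in RefSeq (GRCm38.p6) for 34 of the 35 genes, over 250 bases before to 50 after the start, and Slc2a3 was not matched. Some genes have more than 1 start, and a gene was counted when any of its promoters held the letters. Both MYC and the hypoxia-inducible factors bind sites around ACGTG, and the E-box of MYC is CACGTG, so that each E-box also holds the shorter motif. Both were searched on both strands. The shorter motif was found in 18 of the 34 genes (52.9%), against 21.8% of all 27025 genes with a promoter and 30.5% of the 7968 among them that were tested. The E-box was found in 5 (14.7%), namely Pfkm, Pfkfb3, Ldha, Slc16a1 and Hif1a, against 8.09% and 12.4%. A match is a description of letters and was not read as a bound site. Tpi1, Eno1 and Tkt, which rose on LPS, held no ACGTG, and Slc2a1 and Hk3, which fell, held it. Stretches upstream of the start are shown for 4 genes that rose on LPS and for Hif1a, which fell, with the matches in capitals. They lie on the plus strand at chr7:46845639-46845794 (Ldha), chr3:104638444-104638489 (Slc16a1), chrX:106186930-106186993 (Pgk1), chr19:41911737-41911781 (Pgam1) and chr12:73907712-73907821 (Hif1a).
Ldha: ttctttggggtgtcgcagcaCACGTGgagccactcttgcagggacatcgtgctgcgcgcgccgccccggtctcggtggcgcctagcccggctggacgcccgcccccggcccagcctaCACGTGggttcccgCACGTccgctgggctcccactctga
Slc16a1: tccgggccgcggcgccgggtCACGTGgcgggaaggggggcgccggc
Pgk1: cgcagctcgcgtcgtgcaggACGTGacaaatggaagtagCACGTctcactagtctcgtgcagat
Pgam1: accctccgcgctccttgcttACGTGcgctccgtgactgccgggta
Hif1a: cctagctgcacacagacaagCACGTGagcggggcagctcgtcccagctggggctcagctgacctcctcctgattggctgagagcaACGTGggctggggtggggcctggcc

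LPS raised most of the genes. Together the 35 genes took 0.213% of all counts at rest and 0.619% after LPS in ΔleftPAL cells, and 0.204% and 0.680% in ΔIRIS cells. In the additive fit (edgeR, Benjamini-Hochberg over all genes tested, adjusted p under 0.05), 24 of the 33 tested members rose and 5 fell, against 36.4% and 27.9% of all genes tested. Their median log2 difference was 1.04, against 0.12 for all genes. The 4 members not called were Pfkfb3, Aldoc, Pdk1 and Taldo1. All 24 members that rose were higher in both genotypes, and all 5 that fell were lower in both. The error of the fit comes from disagreement between the genotypes, in part that of other genes, so that its calls favour genes that moved alike. Of all genes tested, called or not, 11.3% had opposite signs in the genotypes. Taken genotype by genotype, 15 members were at least 2-fold higher and 4 at least 2-fold lower after LPS in ΔleftPAL cells, where 21.2% and 16.5% of all genes were. In ΔIRIS cells the numbers were 18 and 3, against 22.7% and 18.1%. With kallisto estimated counts, fewer members were at least 2-fold lower in ΔleftPAL cells, as given in the last section.

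**Figure D1:**
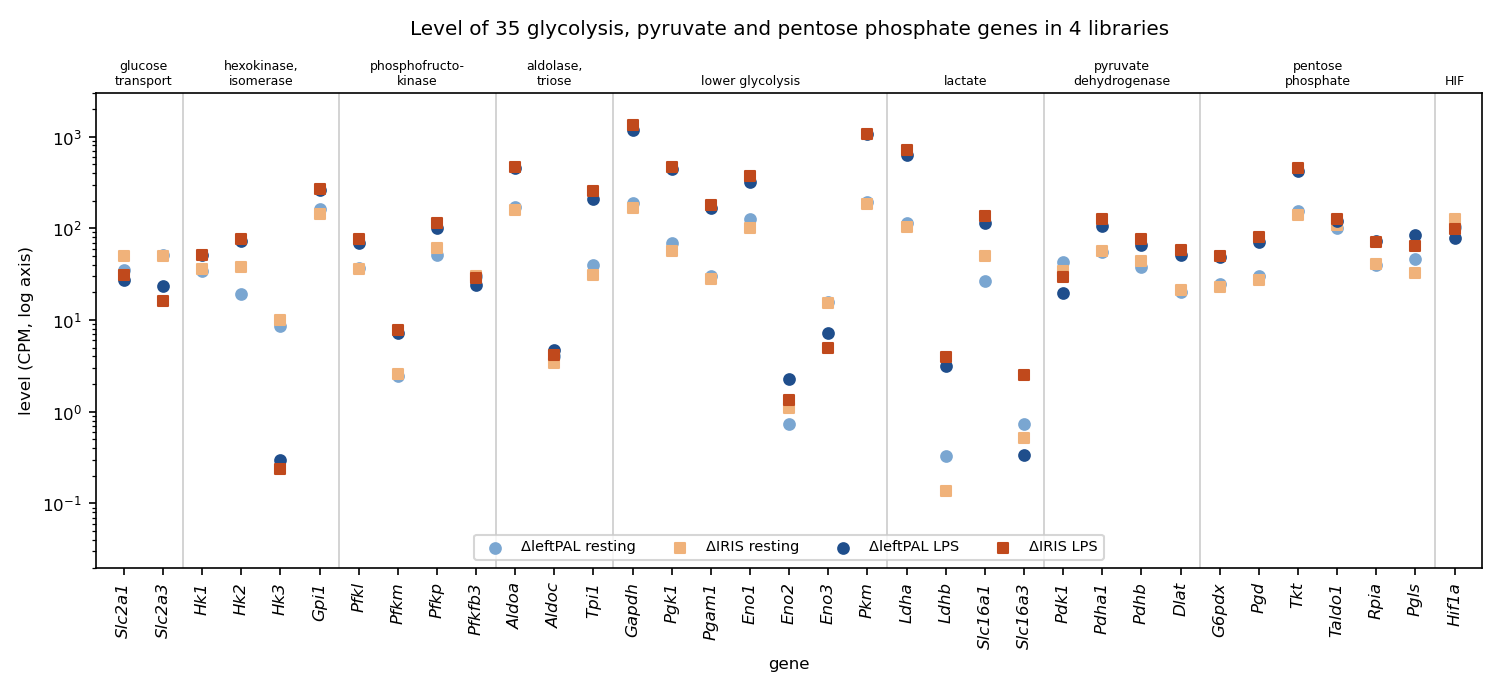
Level of each of the 35 genes (CPM, log axis) in the 4 libraries, by role along the pathway, with 1 point per library. The points of both LPS libraries lie above those of the resting ones from Tpi1 to Ldha, except for Eno3, where they lie below, and Eno2, where those of ΔIRIS cells are close (32 and 39 reads), while Hk3 falls from 8.52 and 9.98 CPM to 0.297 and 0.239 CPM.

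In the payoff phase 5 of 6 tested genes rose and Eno3 fell (36.4% and 27.9% of all genes tested), with a median log2 difference of 2.54. Gapdh, which couples the oxidation of glyceraldehyde 3-phosphate to NADH, stood at 188 CPM at rest and 1179 CPM after LPS in ΔleftPAL cells. In ΔIRIS cells it went from 167 to 1324 CPM. In the authors' gene model Gapdh lies at chr6:125161853-125166467, Pkm at chr9:59656368-59679375, Ldha at chr7:46841475-46855627, Slc16a1 at chr3:104638668-104658462 and Hk2 at chr6:82725025-82774454 of mm10. The differences of Gapdh were 6.26-fold and 7.91-fold, and the fitted log2 difference was 2.81 ± 0.15 (SE, adjusted p = 0.000179). Gapdh was also the most abundant of the 35 per transcript length in every library, at 243 TPM (rest) and 1288 TPM (LPS) in ΔleftPAL cells and 224 and 1417 TPM in ΔIRIS cells.

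Pgk1, the phosphoglycerate kinase that makes the first ATP of the payoff phase, had 68.3 CPM at rest and 443 CPM after LPS in ΔleftPAL cells, and 57.2 and 469 CPM in ΔIRIS cells (log2 difference 2.87 ± 0.15, adjusted p = 0.000175). Pgam1, the phosphoglycerate mutase, rose from 30.5 to 165 CPM and from 28.1 to 178 CPM (2.55 ± 0.14, adjusted p = 0.000198). Pkm, whose enzyme makes the second ATP together with pyruvate, rose from 195 to 1080 CPM and from 182 to 1080 CPM (2.52 ± 0.12, adjusted p = 0.000166). In these 3 genes the LPS libraries of both genotypes stood at least 5.41-fold above their resting libraries. Eno1, the enolase found in most tissues, rose less, from 125 to 321 CPM and from 102 to 369 CPM (1.61 ± 0.16, adjusted p = 0.000761). Eno3, the muscle enolase, went the other way, from 15.6 to 7.28 CPM and from 15.2 to 4.98 CPM (-1.35 ± 0.22, adjusted p = 0.00363). Eno2, the neuronal enolase, had low counts, with 18 and 61 reads in ΔleftPAL cells and 32 and 39 reads in ΔIRIS cells.

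Several of these genes have near-identical copies in the genome, and reads that map to more than 1 place were counted at their primary alignment. Rows of such copies held 9.13% to 9.93% of the reads of Gapdh and its copies, 15.8% to 18.4% for Pgk1 and 7.57% to 9.54% for Pgam1. For Eno1 the share went from 10.1% to 21.3% on LPS in ΔleftPAL cells and from 10.2% to 12.5% in ΔIRIS cells. With the copies added, the log2 ratios on LPS were 2.66 and 2.98 for Gapdh and 1.56 and 1.89 for Eno1 in ΔleftPAL and ΔIRIS cells, against 2.65 and 2.98 and 1.37 and 1.85 without them.

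The Pkm transcripts differed in how far they went up. The transcript with the PKM2 exon made up 88.5% of Pkm TPM at rest and 96.9% after LPS in ΔleftPAL cells, and 87.7% and 96.6% in ΔIRIS cells. That with the PKM1 exon therefore went from 11.5% to 3.09% and from 12.3% to 3.35%. PKM1 was not lower in level. Its estimated counts gave a log2 ratio on LPS of 0.71 in ΔleftPAL and 0.87 in ΔIRIS cells, where PKM2 gave 2.74 and 2.88. The forms differ in 1 coding exon, so that kallisto assigned most Pkm reads by estimate, and no interval is given for these shares. Both transcripts have 2432 bases in the kallisto values. GENCODE M21 gives the PKM1 transcript 2041 bases, with a shorter first and last exon.

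Of the 4 genes of the lactate branch, the 3 that were tested rose, against 36.4% of all genes tested. Ldha, the lactate dehydrogenase subunit that dominates in fermenting tissues, had 113 CPM at rest and 625 CPM after LPS in ΔleftPAL cells, and 104 and 707 CPM in ΔIRIS cells (2.62 ± 0.14, adjusted p = 0.000188). Ldhb, the heart-type subunit, showed the largest fitted rise of the 33, 3.94 ± 0.48 (adjusted p = 0.00141), but it rests on 8 and 84 reads in ΔleftPAL cells and on 4 and 116 in ΔIRIS cells. Ldha held at least 99.3% of lactate dehydrogenase TPM in each library. Slc16a1, which encodes the lactate transporter MCT1, rose from 26.4 to 115 CPM in ΔleftPAL cells and from 49.4 to 136 CPM in ΔIRIS cells (1.79 ± 0.19, adjusted p = 0.000926). Slc16a3, which encodes MCT4, had 18 reads at rest and 9 after LPS in ΔleftPAL cells, and 15 and 74 in ΔIRIS cells. Its LPS library was thus the lower one in ΔleftPAL cells and the higher one in ΔIRIS cells.

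**Figure D2:**
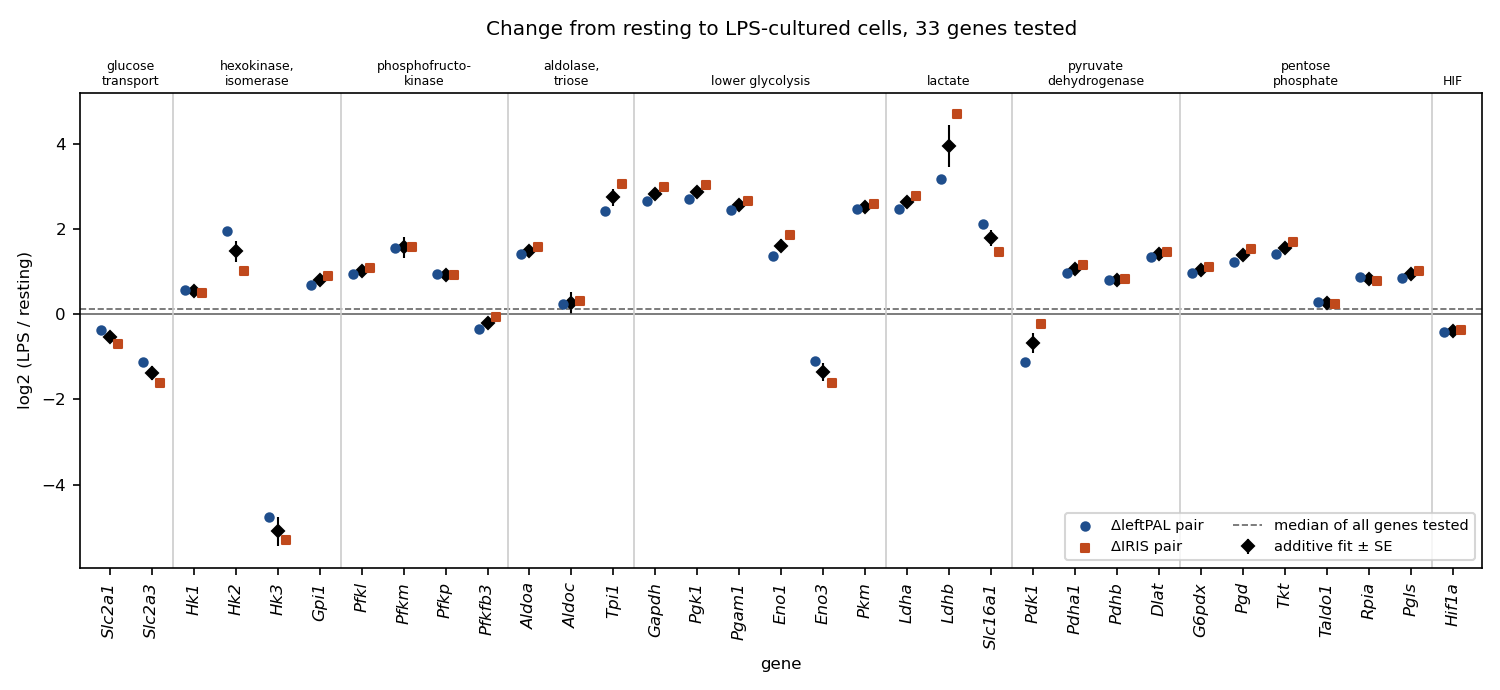
Log2 difference between LPS-activated and resting cells for the 33 tested genes, by role. Diamonds with bars show the additive fit ± SE, circles and squares the ratio within ΔleftPAL and ΔIRIS cells, and the dashed line the median of all genes tested (0.12). The genes from Tpi1 to Ldha form a group above 2, apart from Eno1 at 1.61 and Eno3 at -1.35.

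At the entry of glucose the picture was different. Slc2a1, the widely expressed glucose transporter GLUT1, fell from 35.4 to 27.5 CPM in ΔleftPAL and from 50.3 to 31.1 CPM in ΔIRIS cells (-0.53 ± 0.14, adjusted p = 0.0231). Slc2a3, the high-affinity transporter GLUT3, fell from 50.8 to 23.2 CPM and from 50.3 to 16.3 CPM (-1.37 ± 0.17, adjusted p = 0.00142). Both transporters were thus lower after LPS in both genotypes, and both were called lower, against 27.9% of all genes tested. The call of Slc2a1 was lost with kallisto estimated counts (-0.37, adjusted p = 0.0689) and without genotype in the fit (-0.55, adjusted p = 0.0549).

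Hexokinases commit glucose to the cell by phosphorylation, and the 3 measured here moved apart. Hk1, the constitutive form, rose from 34.3 to 51.1 CPM and from 36.0 to 50.7 CPM (0.54 ± 0.12, adjusted p = 0.0125), although DESeq2's Wald test did not call it (0.39, adjusted p = 0.0996). Hk2, the inducible form, rose from 19.0 to 73.6 CPM in ΔleftPAL cells and from 38.0 to 76.0 CPM in ΔIRIS cells (1.47 ± 0.24, adjusted p = 0.00407). The LPS libraries were nearly level and the resting ones were not. Hk3, a form found mainly in myeloid cells, fell from 208 to 8 reads and from 290 to 7 reads (-5.09 ± 0.34, adjusted p = 0.000291). Gpi1, the isomerase that hands glucose 6-phosphate on to phosphofructokinase, rose from 161 to 260 CPM and from 144 to 267 CPM (0.79 ± 0.13, adjusted p = 0.00361).

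Hk3 moved together with the markers of other cells in the preparation. The summed level of 8 myeloid markers (Lyz2, Csf1r, Cd68, Itgam, S100a8, S100a9, Ly6g and Mpo) was 310 CPM at rest and 8.31 CPM after LPS in ΔleftPAL cells, and 416 and 17.5 CPM in ΔIRIS cells. Among them Csf1r, the receptor that defines monocytes and macrophages, went from 169 to 0.297 CPM and from 225 to 0.171 CPM. Itgam, which was not called, had 13.1 and 5.20 CPM in ΔleftPAL cells but 10.5 and 15.4 CPM in ΔIRIS cells, where it made up most of the sum left after LPS. S100a8, S100a9, Ly6g and Mpo had 0 reads in both LPS libraries, but Ly6g had 1 and 0 reads and Mpo 7 and 9 already at rest. The 7 erythroid markers, mostly globins, went from 41310 to 58.3 CPM and from 28671 to 124 CPM, 6 T cell markers from 23.3 to 0.408 CPM and from 27.5 to 0.341 CPM, of which 3 and 4 were at 0 after LPS, and 5 NK cell markers from 12.5 to 1.08 CPM and from 8.63 to 0.716 CPM. The part of these cells in the lower levels of Hk3, Slc2a1, Slc2a3 and Eno3 after LPS was not tested. Of the B cell markers, 5 (Cd79a, Cd79b, Ms4a1, Cd22 and Pax5) were present in every library, as the label has it, and 4 of the 5 fell on LPS in the fit, against 27.9% of all genes tested. They summed to 3162 and 1863 CPM in ΔleftPAL cells and 2642 and 2024 CPM in ΔIRIS cells.

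Phosphofructokinase sets the pace of the preparatory phase, and its 3 subunit genes rose, against 36.4% of all genes tested, while Pfkfb3 was not called. Pfkl, the liver subunit, went from 36.5 to 69.8 CPM and from 36.2 to 76.2 CPM (1.01 ± 0.12, adjusted p = 0.00143). Pfkp, the platelet subunit, went from 51.7 to 99.8 CPM and from 61.0 to 115 CPM (0.93 ± 0.12, adjusted p = 0.00182). Pfkm, the muscle subunit, was the lowest of the 3 per transcript length (1.21 to 3.04 TPM over the libraries), with 60 and 194 reads in ΔleftPAL and 76 and 230 in ΔIRIS cells (1.57 ± 0.25, adjusted p = 0.00361). Pfkfb3, which makes the allosteric activator fructose 2,6-bisphosphate, had 30.4 and 24.0 CPM in ΔleftPAL and 30.1 and 28.6 CPM in ΔIRIS cells (-0.21 ± 0.14, adjusted p = 0.255).

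Of the genes that split the hexose, Aldoa, the main aldolase of most tissues, rose from 171 to 454 CPM and from 158 to 468 CPM (1.49 ± 0.12, adjusted p = 0.000457). Aldoc, the brain aldolase, had 99 and 128 reads in ΔleftPAL and 99 and 123 in ΔIRIS cells and was not called (0.27 ± 0.26, adjusted p = 0.401). Tpi1, which interconverts the 2 triose phosphates, rose from 39.3 to 211 CPM in ΔleftPAL cells and from 30.9 to 258 CPM in ΔIRIS cells (2.74 ± 0.20, adjusted p = 0.000332). In the order of the pathway, it was the first gene whose log2 difference exceeded 2.

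Isozyme shares, from TPM summed per gene, differed between resting and LPS libraries in the enolases and hexokinases more than in the aldolases. Eno1 took 83.9% of enolase TPM at rest and 95.2% after LPS in ΔleftPAL cells, and 81.3% and 97.5% in ΔIRIS cells. Hk2 took 26.4% and 46.4% of the 3 hexokinases in ΔleftPAL cells and 37.4% and 47.2% in ΔIRIS cells, while Hk3 went from 17.0% to 0.732% and from 17.3% to 0.635%. Aldoa held between 98.0% and 99.3% of the 2 aldolases throughout. Slc16a1 held 85.5% and 99.2% of the 2 lactate transporters in ΔleftPAL cells and 88.3% and 94.0% in ΔIRIS cells. In counts per kilobase these shares were 97.7% and 99.8% and, with the order of rest and LPS turned, 99.1% and 98.5%. Of the 2 glucose transporters Slc2a1 held 53.0% and 55.0% of TPM in ΔleftPAL and 55.2% and 63.0% in ΔIRIS cells, but 63.9% and 75.0% and 71.7% and 82.8% of counts per kilobase. Pfkp appeared as the leading phosphofructokinase in TPM (63.3% to 70.7%), but not in gene counts per kilobase, where it held 36.7% to 41.6% and Pfkl 52.7% to 56.7%. The order of Pfkl and Pfkp thus differed between the measures. So did that of Hk1 and Hk2 in 3 libraries, since in counts per kilobase Hk2 held 67.0% and 67.9% after LPS and 47.9%, against 31.7% for Hk1, in resting ΔIRIS cells.

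**Figure D3:**
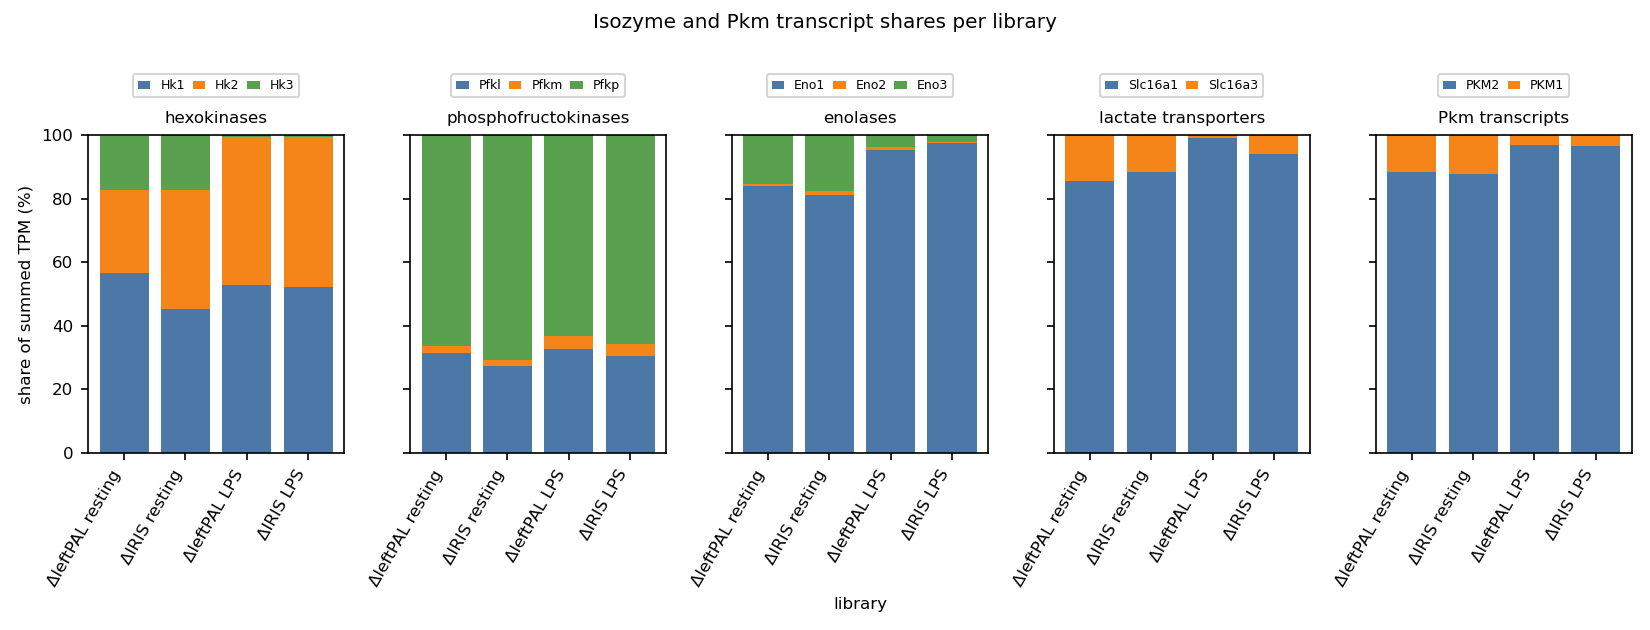
Share of summed TPM (%) per library for 4 isozyme families and for the Pkm transcripts that carry the PKM2 or the PKM1 exon. Each bar is 1 library, and the segments add up to 100%. Hk3, Eno3 and PKM1 take smaller shares in the LPS libraries of both genotypes.

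The genes that turn pyruvate into acetyl-CoA had smaller log2 differences than Ldha and Slc16a1. Pdha1, a catalytic subunit gene of pyruvate dehydrogenase, went from 54.7 to 107 CPM and from 56.9 to 126 CPM (1.05 ± 0.13, adjusted p = 0.00144). Pdhb, its partner subunit, went from 37.5 to 65.4 CPM and from 43.8 to 77.2 CPM (0.81 ± 0.12, adjusted p = 0.00265). Dlat, the acetyltransferase core, rose from 20.3 to 51.4 CPM and from 21.3 to 58.4 CPM (1.40 ± 0.13, adjusted p = 0.000592). All 3 subunit genes thus rose, against 36.4% of all genes tested. Pdk1, a kinase that inhibits the complex, had 42.7 CPM at rest and 19.7 CPM after LPS in ΔleftPAL cells, and 34.6 and 29.6 CPM in ΔIRIS cells. Its difference just missed the threshold (-0.67 ± 0.23, adjusted p = 0.0520) and passed it in 6 other settings, with adjusted p between 0.0150 and 0.0468.

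In the pentose phosphate pathway, 5 of 6 genes rose, against 36.4% of all genes tested. G6pdx, the entry enzyme that makes the first NADPH, went from 24.8 to 48.7 CPM and from 23.0 to 49.8 CPM (1.04 ± 0.13, adjusted p = 0.00150). Pgls, the lactonase that follows it, went from 46.2 to 83.7 CPM and from 32.2 to 64.4 CPM (0.93 ± 0.12, adjusted p = 0.00185). Pgd, which makes the second NADPH, went from 30.0 to 70.4 CPM and from 27.6 to 79.5 CPM (1.38 ± 0.14, adjusted p = 0.000739). These are the enzymes of the oxidative arm, and each was higher in both genotypes. Rpia, the isomerase that gives ribose 5-phosphate, went from 39.9 to 73.2 CPM and from 40.6 to 70.1 CPM (0.83 ± 0.12, adjusted p = 0.00252).

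The genes of the non-oxidative arm, which exchanges sugars with glycolysis and to which Rpia also belongs, did not move alike. Tkt, the transketolase, rose from 156 to 418 CPM and from 141 to 456 CPM (1.55 ± 0.13, adjusted p = 0.000493). Taldo1, the transaldolase, was not called, at 99.8 and 121 CPM in ΔleftPAL and 108 and 127 CPM in ΔIRIS cells (0.26 ± 0.12, adjusted p = 0.121). It was called higher by edgeR with kallisto estimated counts (0.38, adjusted p = 0.0262).

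Hif1a, the oxygen-regulated factor that activates many glycolysis genes, fell from 104 to 78.1 CPM and from 125 to 97.3 CPM (-0.39 ± 0.12, adjusted p = 0.0380). Its call was lost with kallisto estimated counts (-0.25, adjusted p = 0.109) and without genotype in the fit (-0.39, adjusted p = 0.0894). Of 14 other genes of the hypoxia pathway 11 were tested, 1 of which rose and 1 fell, against the same 36.4% and 27.9% of all genes tested, with a median log2 difference of -0.19. Ero1l, an oxidase of the endoplasmic reticulum, rose (1.51 ± 0.13, adjusted p = 0.000508), and Ndrg1, a stress-responsive gene, fell (-1.99 ± 0.29, adjusted p = 0.00249).

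Other genes of these pathways were taken from a separate list of 55, of which 54 were in the table and 36 were tested. Of these 16 rose and 10 fell, against 36.4% and 27.9% of all genes tested, with a median log2 difference of 0.25 against 0.12. Galk1, the galactokinase, rose most, from 13.7 to 51.6 CPM and from 8.19 to 60.7 CPM (2.39 ± 0.26, adjusted p = 0.000949). Pdk3, another kinase of pyruvate dehydrogenase, rose from 13.0 to 35.3 CPM and from 12.6 to 40.7 CPM (1.57 ± 0.15, adjusted p = 0.000632). Slc2a6, a transporter of the glucose transporter family, rose from 8.88 to 18.1 CPM and from 7.36 to 17.1 CPM (1.12 ± 0.18, adjusted p = 0.00333). Mpc1 and Mpc2, which form the mitochondrial pyruvate carrier, also rose (0.73 ± 0.14, adjusted p = 0.00704, and 0.76 ± 0.15, adjusted p = 0.00788).

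In the same list, Txnip, which restrains glucose uptake, fell from 361 to 179 CPM and from 393 to 122 CPM (-1.35 ± 0.19, adjusted p = 0.00230). The largest falls among the tested genes of the list were those of Pygl, the liver glycogen phosphorylase (10.5 to 0.297 CPM and 13.6 to 0.0682 CPM), Bpgm, the bisphosphoglycerate mutase of red cells (289 to 18.0 CPM and 273 to 16.3 CPM), and Slc16a7, which encodes MCT2 (6.67 to 1.89 CPM and 6.50 to 0.989 CPM). Bpgm and Pygl fell beside the erythroid and myeloid markers given above, whose part in these values was not tested. The last level of Pygl lies below the 0.102 CPM of 3 counts.

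All 16 genes of the citric acid cycle, which burns the acetyl-CoA made by pyruvate dehydrogenase, were tested, and 15 rose while none fell (36.4% and 27.9% of all genes tested), with a median log2 difference of 1.07. The exception was Ogdh, named here because it was the single gene left (0.36 ± 0.12, adjusted p = 0.0509). The largest differences were those of Idh3a (2.00 ± 0.12, adjusted p = 0.000245), Sdhd (1.72 ± 0.13, adjusted p = 0.000347) and Cs, the citrate synthase (1.42 ± 0.12, adjusted p = 0.000504). All 10 proliferation genes rose (36.4% of all genes tested), with a median of 3.34, led by Ccnb1 (4.01 ± 0.16), Bub1 (3.84 ± 0.14) and Cdk1 (3.70 ± 0.15, each with adjusted p = 0.000158).

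The genotype comparison asked whether the cells of ΔIRIS mice, which keep the enhancers, differed in these genes from those of ΔleftPAL mice. In the additive fit edgeR called 0 of the 33 members, against 0.00886% of all genes tested, which is 1 gene, and 2 members had an unadjusted p under 0.05, as had 792 of the 11286 genes tested. DESeq2's Wald test also called 0. The 2 were Pgls, lower in ΔIRIS cells (-0.45 ± 0.12, adjusted p = 0.707), and Slc16a1, higher in them (0.57 ± 0.19, adjusted p = 0.707). A miss of the threshold does not show equal levels, and single ratios between libraries were tightly bounded by counting for the abundant genes. For Pkm, ΔIRIS cells against ΔleftPAL cells gave a log2 ratio of -0.10 at rest (interval -0.15 to -0.04) and 0.00 after LPS (-0.02 to 0.02). For Aldoa it was -0.11 (-0.17 to -0.05) and 0.05 (0.01 to 0.08).

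In the resting libraries no tested member was at least 2-fold higher in ΔIRIS cells and 1 was at least 2-fold lower, against 2.38% and 1.38% of all genes tested. The 1 was Ldhb, with 8 and 4 reads (log2 ratio -1.17, interval -3.43 to 0.65). Hk2 stood at the 2-fold line with 38.0 CPM in ΔIRIS against 19.0 CPM in ΔleftPAL cells (1.00, 0.84 to 1.16), and it was the member called higher with some other scalings. In TPM it had 6.40 in ΔleftPAL and 11.1 in ΔIRIS cells. Slc16a1 (0.90, 0.77 to 1.04) and Slc2a1 (0.51, 0.38 to 0.63) were also higher in resting ΔIRIS cells beyond counting error, and Pgls was lower (-0.52, -0.65 to -0.40). Smaller ratios beyond counting error went both ways. Among them, Tpi1 (-0.35, -0.48 to -0.21), Eno1 (-0.29, -0.36 to -0.21) and Gapdh (-0.17, -0.23 to -0.11) were lower. Pfkp (0.24, 0.13 to 0.34) and Pdhb (0.23, 0.10 to 0.35) were higher. Of the 6 tested genes of the payoff phase, 0 were higher in resting ΔIRIS cells, against 5640 of the 11286 genes tested. Hif1a was higher in ΔIRIS cells in both conditions (0.26, 0.19 to 0.34 at rest and 0.32, 0.23 to 0.40 after LPS).

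After LPS, no tested member was 2-fold higher or lower, against 1.05% and 2.64% of all genes tested. The largest ratios among tested members were those of Pdk1 (0.58, 0.43 to 0.74), Eno3 (-0.55, -0.87 to -0.23) and Slc2a3 (-0.51, -0.68 to -0.33). Slc16a3, below the level for testing, had 9 reads in ΔleftPAL and 74 in ΔIRIS cells (2.85, 1.92 to 4.10). Of the 33 members, 13 were higher in ΔIRIS than in ΔleftPAL cells at rest and 26 after LPS, against 5640 and 6190 of the 11286 genes tested. The 5 plasmablast markers summed to 743 CPM in resting ΔIRIS against 438 CPM in resting ΔleftPAL cells, and to 996 against 1314 CPM after LPS. Most of the difference at rest was that of Irf4 (604 against 285 CPM). Prdm1 (7.22 against 4.54 CPM), Sdc1 (17.9 against 12.7 CPM) and Xbp1 (64.4 against 61.9 CPM) were also higher in resting ΔIRIS cells, and Mzb1 was lower (49.3 against 73.6 CPM). The resting libraries differed in other lists too. Of the 10 proliferation genes 7 were higher in resting ΔIRIS cells, with a median log2 ratio of 0.24. The erythroid markers summed to 28671 CPM in resting ΔIRIS against 41310 CPM in resting ΔleftPAL cells, and the myeloid markers to 416 against 310 CPM. The part of all these genes in the ratios of the members was not tested.

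**Figure D4:**
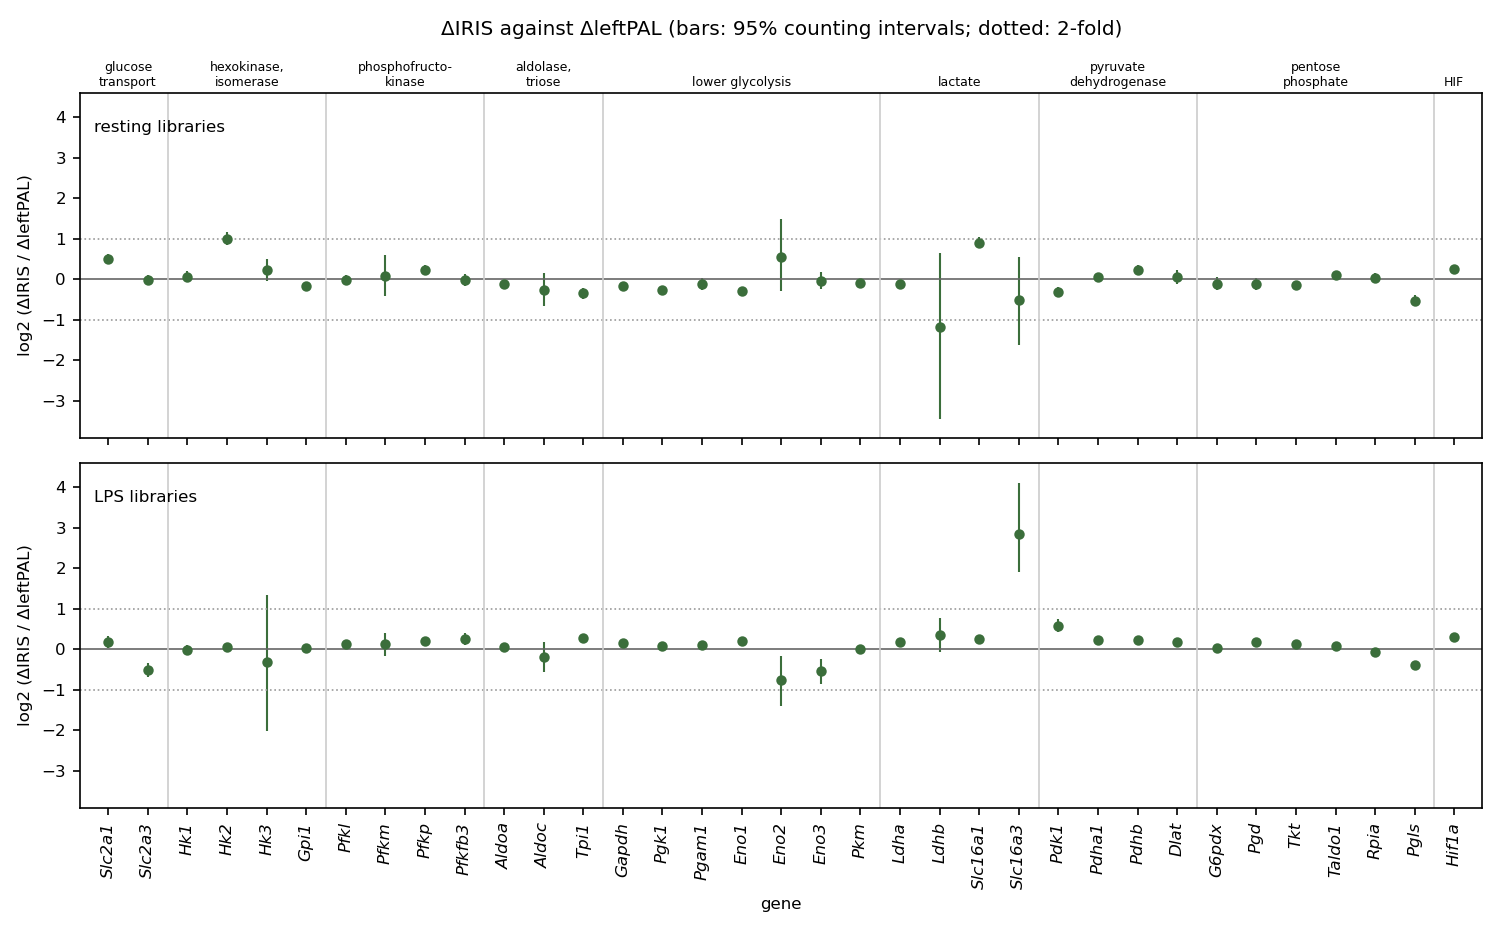
Log2 ratio of ΔIRIS over ΔleftPAL for the 35 genes in the resting (top) and the LPS libraries (bottom), with 95% counting intervals and dotted lines at 2-fold. At rest Hk2 and Slc16a1 lie highest (1.00 and 0.90), and after LPS all but Slc16a3 (2.85) lie within 2-fold.

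The size of the LPS response was also set side by side, as the difference of the log2 ratios of ΔIRIS and ΔleftPAL cells. With 1 library per group this difference has no test, and its normal interval covers counting error only. The responses of 1 of the 33 tested members were at least 2-fold apart, against 7.10% of all genes tested. This was Ldhb, on the low counts given above (difference 1.51, interval -0.19 to 3.21). Of the members below the level for testing, Slc16a3 (3.36, 1.98 to 4.73) and Eno2 (-1.32, -2.33 to -0.32) were also over 2-fold apart. Among the tested ones Hk2 came next, with log2 ratios of 1.95 in ΔleftPAL and 1.00 in ΔIRIS cells (-0.95, -1.13 to -0.77), a difference that lies in the resting libraries. Pdk1 followed with -1.11 and -0.23 (0.89, 0.69 to 1.09), Slc16a1 with 2.12 and 1.47 (-0.65, -0.80 to -0.50) and Tpi1 with 2.42 and 3.06 (0.64, 0.50 to 0.78). The LPS ratio was higher in ΔIRIS cells in 23 of the 33 members, with a median difference of 0.14, and in 5754 of the 11286 genes tested, with a median of 0.01. The 5 genes of the payoff phase that rose (Gapdh, Pgk1, Pgam1, Eno1 and Pkm) were all among the 23, with differences from 0.10 (Pkm) to 0.49 (Eno1). For Eno1 the ratios with its copies added were 1.56 and 1.89, closer together than the 1.37 and 1.85 without them.

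**Figure D5:**
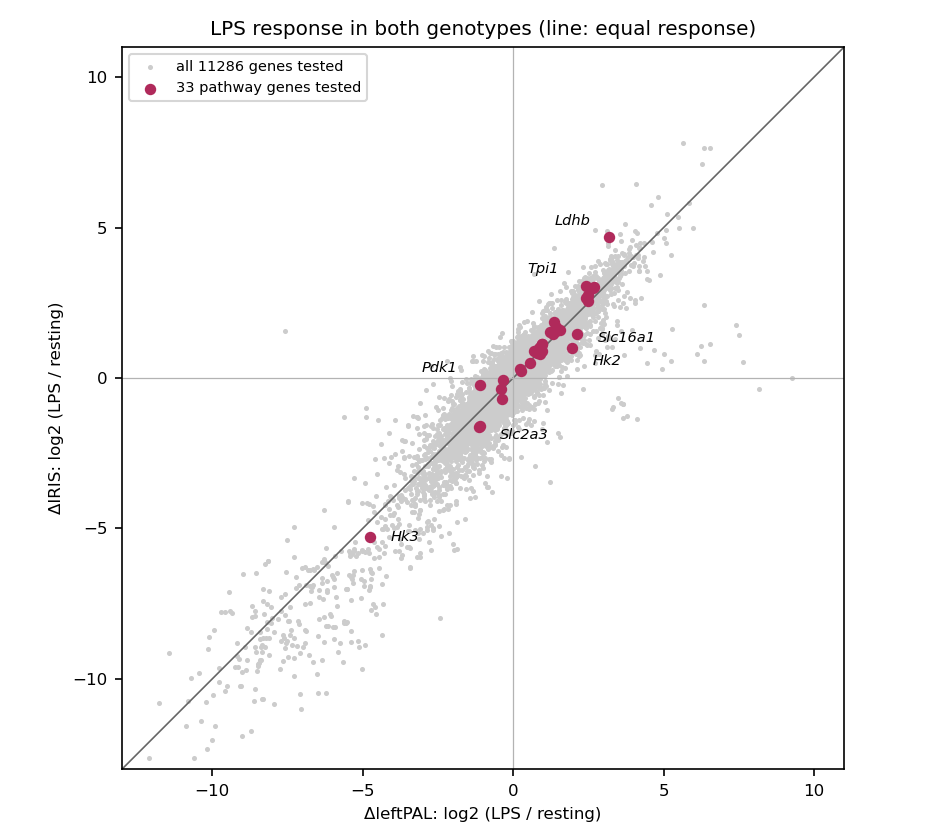
Log2 ratio of LPS over resting in ΔleftPAL (x axis) and ΔIRIS cells (y axis), with the 33 tested pathway genes in colour over all 11286 genes tested and a line of equal response. The pathway genes follow the line, with Hk2 and Slc16a1 below it and Tpi1, Pdk1 and Ldhb above it.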

How the data were processed

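RNA of 4 pooled preparations was sequenced after ribosomal depletion with a stranded kit, in paired reads. The authors mapped them with STAR 2.4.0a to mm10 with Ensembl gene models and deposited raw counts per gene name from featureCounts (Subread 1.4.6-p1), without normalization, counting primary alignments of multi-mapping reads. The authors also deposited kallisto (0.42.3) estimated counts per transcript and their TPM, scaled to a common sum, which were summed per gene here. Of 41343 rows, 1 without a gene name (0.00876% to 0.0264% of counts) was left out. The most abundant row, mt-Rnr2, took 14.5% to 19.6% of counts.

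Counts were scaled by TMM and fitted with edgeR 4.0.16 in R 4.3.3 (glmQLFit, genotype plus condition, minimum average of 50 counts per library), with Benjamini-Hochberg adjustment. Ratios used counts plus 0.5. Intervals were computed with scipy 1.17.1, and intervals and floors (3 counts) leave out every error but that of counting, as reads copied by PCR do not stand for separate molecules. Levels of the members were ranked against each other only in TPM or counts per kilobase. Copies of a gene share at least 100 31-mers covering at least 50% of the copy in GENCODE M21. All members, up to 3 genes per direction of each comparison list with the largest LPS difference past the test, Txnip, Mpc1 and Mpc2 are named. Members and lists were chosen with earlier results of these data known. The result of 1 listed marker gene is not reported here. Marker genes named singly and Ogdh were chosen after their values were seen. Scripts were tested on simulated data. Alternatives were other library sizes, filters, DESeq2 1.42.0, kallisto values, 0.5 CPM as the prior and fewer covariates.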

Additional observations from a re-analysis of the deposited data

Results flagged for a closer look

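Slc16a3, which encodes the lactate transporter MCT4, was lower after LPS in 1 genotype and higher in the other. It had 18 reads at rest and 9 after LPS in ΔleftPAL cells and 15 and 74 in ΔIRIS cells, so that the log2 ratios were -1.10 (95% counting interval -2.48 to 0.09) and 2.25 (1.48 to 3.20). Their difference was 3.36 (1.98 to 4.73). With 1 library per group this difference was not tested. The 11286 genes tested do not include Slc16a3, as its counts were too low. Of them, 11.3% had opposite signs in the 2 genotypes and 7.10% had responses at least 2-fold apart. In TPM the gene had 1.34 and 0.233 in ΔleftPAL cells and 1.93 and 2.13 in ΔIRIS cells, and its leading transcript was not the same one in all libraries.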

How the results depend on the processing

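No called difference changed direction under the alternatives run. Some small ratios that were not called did so in TPM. Among them, Aldoc went from 3.53 to 3.06 TPM on LPS in ΔleftPAL and from 2.64 to 2.48 TPM in ΔIRIS cells. Taldo1 went from 132 to 129 TPM in ΔIRIS cells. After LPS, Aldoa had 373 TPM in ΔleftPAL and 369 TPM in ΔIRIS cells. The number of members that fell on LPS was 3 in place of 5 with kallisto estimated counts and with genotype left out of the fit. The number at least 2-fold lower on LPS in ΔleftPAL cells was 1 with kallisto estimated counts, in place of 4. In TPM, Slc2a3 (23.3 at rest and 11.5 after LPS) and Pdk1 (20.8 and 10.2) lay close to the 2-fold line in these cells. At rest, the number at least 2-fold higher in ΔIRIS cells was 1 in place of 0 with DESeq2 size factors, with TMM without immunoglobulin genes, with TMM over the genes tested (an alternative chosen after seeing the data) and with kallisto estimated counts. The number at least 2-fold lower at rest, and the number of responses at least 2-fold apart, were each 0 in place of 1 with 0.5 CPM added and with kallisto estimated counts. In TPM, both rest on the low values of Ldhb at rest, 0.742 in ΔleftPAL and 0.342 in ΔIRIS cells. In gene counts per kilobase, shares in resting and LPS-activated ΔleftPAL and then resting and LPS-activated ΔIRIS cells were 63.9%, 75.0%, 71.7% and 82.8% for Slc2a1, 33.4%, 67.0%, 47.9% and 67.9% for Hk2, 37.6%, 36.7%, 41.6% and 37.9% for Pfkp, 71.8%, 92.8%, 67.9% and 95.6% for Eno1, and 97.7%, 99.8%, 99.1% and 98.5% for Slc16a1. Ldha held 99.1% and 98.9% after LPS. With GCGTG added to ACGTG, 30 of 34 genes (88.2%) had a promoter with a match, against 69.5% of tested genes with a promoter. Taldo1 was called with kallisto estimated counts (0.38, adjusted p = 0.0262). The cause of these shifts was not tested. Of the counts, medians and shares recomputed, 116 stayed close to the reported ones and 37 moved. Of the values of single genes, 1313 stayed close and 263 moved beyond counting error. The labels give no replicate numbers, so that no pairing beyond that by genotype was possible. The term for genotype in the fit already sets each LPS library against the resting one of its genotype. Leaving out a library leaves 1 genotype, whose ratios are given above. Depth limits Ldhb, Hk3 after LPS, Eno2 and Slc16a3, with under 50 reads in at least 1 library.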
